A study of Homo sapiens with 2 samples.

Results

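The loops described here joined chromatin regions by contacts that H3K27ac HiChIP recorded more than once in KYSE180, an established cell line of esophageal squamous cell carcinoma (ESCC) transfected with a non-targeting siRNA. They were chosen by their number of contacts, from a list of 31950 loops that the authors deposited for 2 libraries together: loops on autosomes with 2 or more contacts and a span below 1 Mb, leaving out 2 repeat-like pile-ups on chromosomes 16 and 10. The study's methods call the loops of this list p63-associated, after the squamous transcription factor p63, and do not say how p63 entered the calls, so the list may not hold all contacts between acetylated regions. The rule selected 971 loops of the 27964 that met its other limits. Both libraries belong to 1 group, so there was no untreated or perturbed group to compare with, and with 1 pooled list no value has a replicate spread and no test across samples was possible. Intervals are 95% and cover counting error only, taking loops as independent although loops share bins.

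HiChIP joins DNA ends that lie close together in the nucleus and then enriches the joined fragments with an antibody, here against H3K27ac, a histone mark of active promoters and enhancers. A loop is here a pair of regions that were found joined and that the authors' loop caller, FitHiChIP, kept. Joined pairs that were not called are not in the list. How the calling shaped the shares below was not tested. The anchors of a loop are the bins at its ends. Contacts between regions become rarer with distance along the chromosome, and a region that is well enriched by the antibody yields more contacts with everything around it. In squamous cells, as in other cells, promoters and distal enhancers of active genes are commonly joined by such contacts.

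Every loop connected 2 bins of 2 kb. The list gives 2 whole numbers for each, taken here to be its contacts and the coverage of its first bin. The latter number was the same for every loop of a first bin, and the summed contacts of a bin exceeded it in 0 bins. Positions are those of the list, on hg19. Loci are given by position and not by gene, because no gene annotation or genome sequence of that build was used here.

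Most of the 971 loops were just inside the limit. There were 899 loops with 2 contacts, 55 with 3, 8 with 4 and 6 with 5, and the highest were single loops with 6, 8 and 10 contacts. Just outside the limit were 26993 loops with 1 contact. The exact Poisson interval of a count of 2 was 0.242 to 7.22 and that of a count of 1 was 0.0253 to 5.57, so a single loop on either side of the limit could not be told apart by its count. The 971 loops held 2049 of 29042 contacts, or 7.06%. At the limit on span, the longest loops inside were 954 kb long, and the shortest loop of 2 contacts outside spanned 1142 kb. The pile-up left out on chromosome 16 held 66 loops of 2 or more contacts with 505 contacts, and that on chromosome 10 held 21 loops with 166 contacts.

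The loops with 2 or more contacts were short. Their median span was 28 kb (interquartile range 14 to 68 kb, highest 954 kb), beside 96 kb (34 to 264 kb) for loops of 1 contact. The 72 loops with 3 or more contacts also had a median span of 28 kb. Over all loops that met the other limits, 3.47% had 2 or more contacts and 0.257% had 3 or more. By span, the share with 2 or more was 8.96% from 10 to 20 kb (357 of 3983, Wilson interval 8.12 to 9.89%) and 4.97% from 20 to 50 kb (288 of 5791, 4.44 to 5.56%). It was 2.49% from 50 to 200 kb (235 of 9436, 2.19 to 2.82%) and 1.04% from 200 kb to 1 Mb (91 of 8754, 0.847 to 1.27%). The share was highest, 11.8% (9.92 to 13.9%), at the shortest listed span of 10 kb, and it was 4.32% (2.75 to 6.72%) at 28 kb.

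The share was also higher at higher coverage. Among loops of 10 to 20 kb it was 4.22% (3.19 to 5.57%) where the first bin had a coverage below 10, 8.51% (7.40 to 9.76%) from 10 to below 30, and 17.7% (15.1 to 20.6%) from 30 upward. Among loops of 200 kb to 1 Mb the same shares were 0.407% (0.221 to 0.748%), 1.02% (0.761 to 1.36%) and 1.92% (1.39 to 2.65%). The shares were lower at longer span within each class of coverage. Since the rule uses the contacts, and contacts count toward coverage, these shares describe the selected loops and test nothing.

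**Figure D1:**
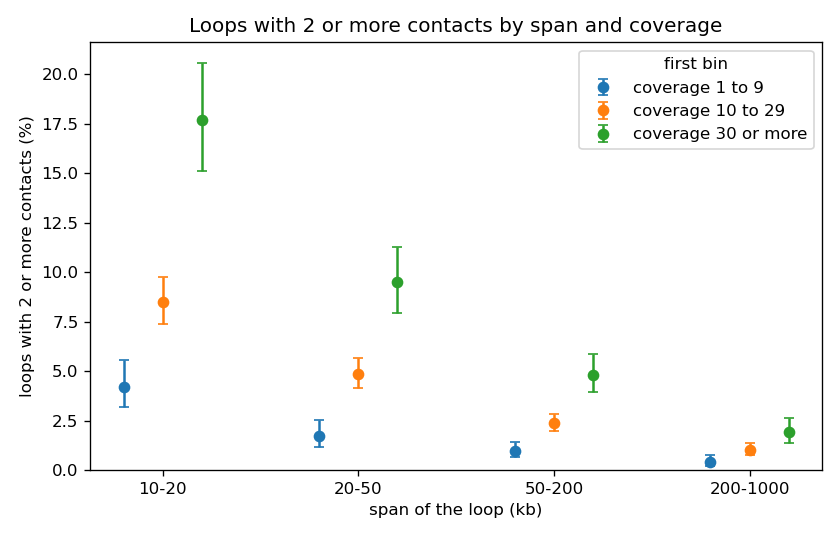
Share of loops with 2 or more contacts (vertical axis, percent) in 4 classes of span (horizontal axis, kb) and 3 classes of coverage of the first bin. Points are shares over loops and bars are 95% Wilson intervals. The share was highest, 17.7%, in short loops from well-covered bins, and lowest, 0.407%, in long loops from poorly covered bins.

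The first bins of the 971 loops had a median coverage of 22 (interquartile range 14 to 40), beside 15 (9 to 25) for loops of 1 contact. The median loop took 9.52% of the coverage of its first bin (5.13 to 14.3%). For 593 of the 971 loops the coverage of the second bin was also listed, because that bin was the first bin of another loop, and the contacts were a median of 11.1% of the lower of the 2 coverages.

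The 17 loops with 4 or more contacts took from 3.28 to 57.1% of the coverage of their first bins. They are split here at 30%, a limit used for description only. At 4 to 10 contacts, 30% or more of the coverage is possible only where coverage is low. Low coverage also leaves fewer contacts for other loops of that bin. The contrast between the 2 sides is therefore largely fixed by the split and tests nothing. In 10 of them the contacts made up 30% or more of the coverage, which was 8 to 25, and at most 2 other loops ended at their anchors. In the other 7 the contacts were below 30% of a coverage of 38 to 122, and from 0 to 26 other loops shared their anchors. The loop with the most contacts joined chr3:195384001-195386000 with chr3:195716001-195718000, 332 kb apart, by 10 contacts (exact Poisson interval 4.80 to 18.4) of a coverage of 25. No other loop ended in either of its bins, and none had both ends within 4 kb of its own. The stretch was not empty. Inside its range lay 10 loops of 1 contact and a loop of 2 contacts, chr3:195412001-195692000. A loop of 4 contacts, chr3:195342001-195450000, overlapped the range. The loop with 8 contacts (3.45 to 15.8) was also the joint longest, from chr3:4004001-4006000 to chr3:4958001-4960000, 954 kb away, and took 8 of a coverage of 14. It too had 0 other loops at its anchors.

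The loop with 6 contacts (2.20 to 13.1) joined bins 112 kb apart at chr6:45030001-45032000 and chr6:45142001-45144000, with a coverage of 18. A loop of 2 contacts ran from the same first bin to chr6:45144001-45146000. On chromosome 10, 2 loops with 5 and 4 contacts ran side by side between chr10:4982001-4986000 and chr10:5060001-5064000, at coverages of 11 and 10. A loop of 5 contacts and a coverage of 11 spanned 24 kb from chr1:22302001-22304000. Next to it, 2 loops of 2 contacts had both ends within 4 kb of its own. These loops of 4 to 6 contacts on chromosomes 6, 10 and 1 took 33.3 to 45.5% of the coverage of their first bins. Reads can be misplaced between near-identical copies of a sequence. Whether such copies lie in the bins of these loops, or of those with 10 and 8 contacts, was not tested. Nor was it tested for the other loops of the 971, since that needs the genome of the build of the list. The rule left out only the 2 pile-ups. It kept a loop beside that on chromosome 10, at chr10:42358001-42382000, and a loop from the bin with the highest coverage, 962, at chr7:61968001-61970000.

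The other loops with 5 contacts left from well-covered bins. That from chr1:45988001-45990000 spanned 28 kb and took 5 of 109, with 8 other loops at its anchors, and that from chr9:113018001-113020000 spanned 28 kb and took 5 of 98, with 0 other loops. That from chr7:98732001-98734000 spanned 10 kb and took 5 of 47, with 13 other loops at its anchors, and that from chr11:64892001-64894000 spanned 10 kb and took 5 of 38, with 12 other loops.

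**Figure D2:**
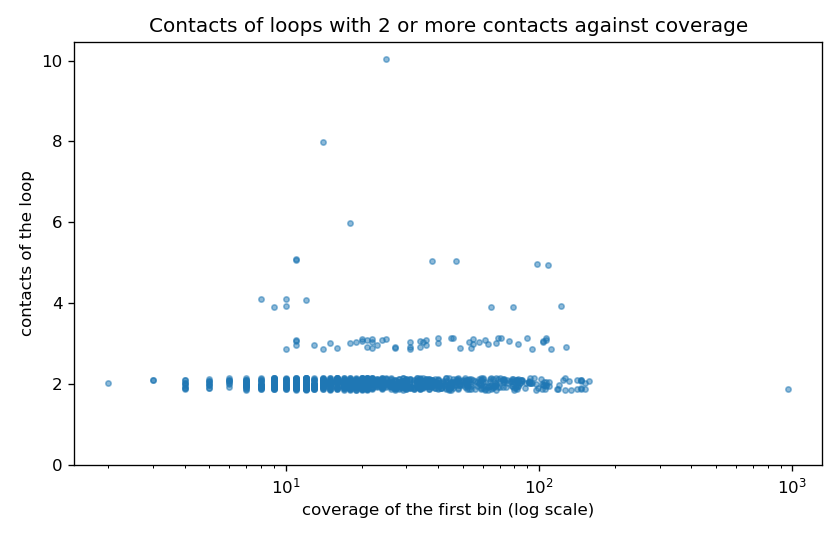
Contacts of each of the 971 loops (vertical axis, points spread slightly around whole numbers) against the coverage of its first bin (horizontal axis, log scale). The loops with 10, 8 and 6 contacts lay at coverages of 25, 14 and 18, while loops of 5 contacts lay at coverages from 11 to 109.

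The rule did not use whether other loops of the list lay beside a loop. The neighbours counted can themselves be among the 971 loops, and 2 neighbouring loops count for each other. The shares below are therefore a description. A neighbour was another loop with both ends within 4 kb of those of the first. Of the 971 loops, 432 had a neighbour, or 44.5% (41.4 to 47.6%), beside 5781 of 26993 loops of 1 contact, or 21.4% (20.9 to 21.9%). Counting neighbours of 1 contact alone, a choice made after the data were seen, the share of the 971 loops was 40.3%. The 21.4% counts neighbours of any number of contacts, so it is not matched to this share. Since loops of 2 or more contacts were shorter and better covered, the shares were set side by side within classes.

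From 10 to 20 kb a neighbour was present at 51.0% (45.8 to 56.1%) of loops with 2 or more contacts and 42.8% (41.2 to 44.4%) of loops with 1. From 20 to 50 kb the shares were 53.5% (47.7 to 59.1%) and 35.2% (33.9 to 36.4%). From 50 to 200 kb they were 34.5% (28.7 to 40.8%) and 18.8% (18.0 to 19.6%), and from 200 kb to 1 Mb 16.5% (10.3 to 25.4%) and 6.57% (6.07 to 7.11%). The intervals did not overlap in any of the 4 classes. The shortest loops had fewer places for a neighbour, because no loop under 10 kb is listed.

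Within classes of coverage the pattern was less even. Where the first bin had a coverage of 30 or more, they were 62.2% (53.5 to 70.2%) and 62.4% (58.5 to 66.2%) from 10 to 20 kb, so no difference was detectable there. In the same bins they were 71.8% (62.8 to 79.4%) and 53.5% (50.5 to 56.5%) from 20 to 50 kb, where the intervals did not overlap. They overlapped in the longer classes, at 40.7% (31.1 to 50.9%) and 29.4% (27.3 to 31.5%) from 50 to 200 kb, and at 19.4% (9.75 to 35.0%) and 11.3% (9.96 to 12.9%) above that. At a coverage from 10 to below 30, the intervals overlapped in the 2 shorter classes. They did not overlap from 50 to 200 kb, where the shares were 31.9% (24.2 to 40.8%) and 18.6% (17.5 to 19.7%), or from 200 kb to 1 Mb, where they were 15.6% (7.75 to 28.8%) and 6.14% (5.47 to 6.89%). Below a coverage of 10 they overlapped in all 4 classes. In the shortest of these the order was the other way, at 23.4% (13.6 to 37.2%) and 32.1% (29.4 to 35.0%), with 47 loops of 2 or more contacts.

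**Figure D3:**
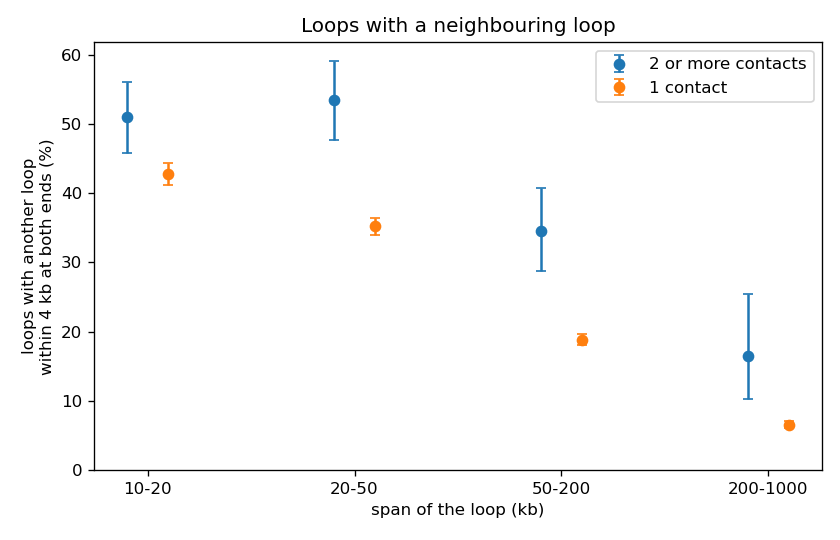
Share of loops with another loop within 4 kb at both ends (vertical axis, percent) by span (horizontal axis, kb), for loops with 2 or more contacts and with 1 contact. Bars are 95% Wilson intervals. The shares fell from 53.5% to 16.5% between the second and the last class in loops with 2 or more contacts.

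The 971 loops used 1761 anchors, of which 1613 had 1 such loop, 125 had 2, 15 had 3, 6 had 4 and 2 had 5. Counting loops of any number of contacts, these anchors had a median of 3 loops and at most 23, and 25% had only 1. The 29884 anchors without a loop of 2 or more contacts had a median of 1 loop, and 63% had only 1. An anchor with more loops has more chances to hold a loop of 2 or more contacts. The contrast is therefore a description and tests nothing. Both anchors with 5 such loops lay on chromosome 17. That at chr17:79848001-79850000 had a coverage of 107 and 21 loops in all, and that at chr17:79318001-79320000 had a coverage of 61 and 7 loops in all, 5 of which had 2 or more contacts. Anchors with 4 such loops included chr14:23450001-23452000, with a coverage of 147 and 23 loops in all, and chr1:209604001-209606000, with a coverage of 125 and 7 loops in all.

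When loops whose anchors touched were joined, the 971 loops formed 703 clusters. Of these, 577 were single loops, 76 had 2 loops and 22 had 3, and 18 clusters had 5 or more loops. These 18 held 136 loops, 14% of the 971, and 7 of the 18 lay in segments of high coverage on chromosome 3 (120 to 200 Mb) and chromosome 11 (65 to 70 Mb). These segments held 8.75% and 5.97% of the 971 loops. Of all loops that met the other limits they held 7.4% and 4.58%.

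The cluster with the most loops ran over 270 kb at chr17:79602001-79872000. It had 14 loops with 32 contacts among 16 anchors, and 45 loops of 1 contact lay inside it. Of the 14 loops, 4 had 3 contacts, and these spanned 60, 30, 22 and 10 kb. All 4 lay in the last 74 kb of the cluster, which held 10 of its 16 anchors. Coverage of the first bins ran from 19 to 107. The longest loops of the cluster spanned 166 and 170 kb and had 2 contacts each, and no loop lay beside them.

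The next cluster, at chr1:209442001-209608000, had 13 loops with 27 contacts and 65 loops of 1 contact inside. Of its loops, 12 lay within 74 kb and each had a neighbour, up to 8 of them. Its 1 loop of 3 contacts spanned 26 kb from chr1:209578001-209580000. The third cluster, at chr3:188990001-189734000, was the longest of these, with 11 loops over 744 kb and 224 loops of 1 contact inside. It was made of a group of shorter loops at each side, joined by loops of 608 and 554 kb with 2 and 3 contacts. The shorter loops spanned 14 to 110 kb at its start and 12 to 114 kb at its end. Its strongest loop had 4 contacts and spanned 28 kb from chr3:189072001-189074000, 4 of a coverage of 79.

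**Figure D4:**
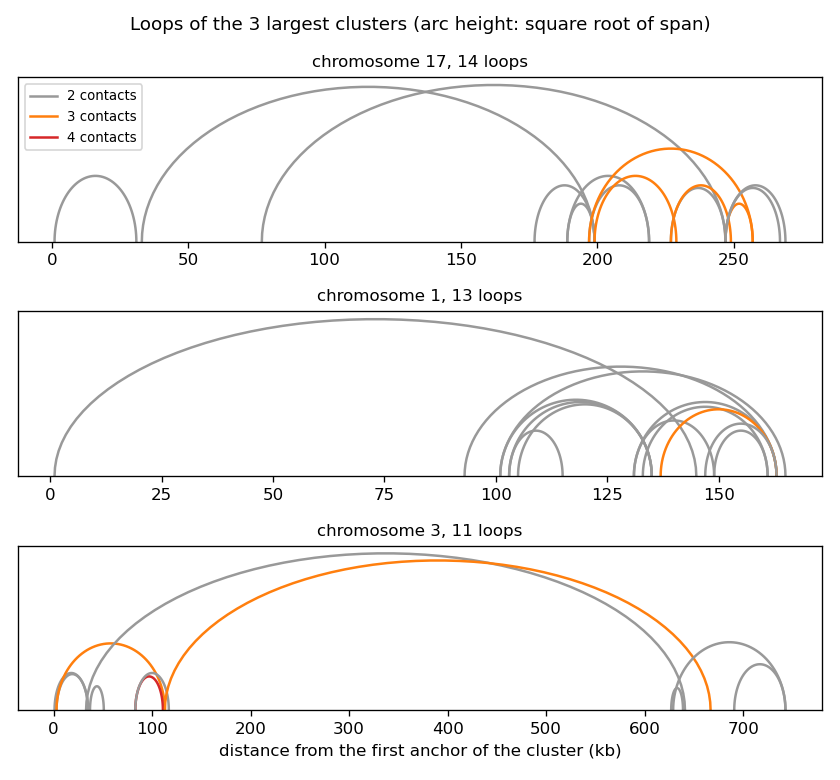
Loops of the 3 clusters with the most loops, drawn as arcs between their anchors (horizontal axis, distance in kb from the first anchor; arc height is the square root of the span). Colour gives the contacts. The clusters on chromosomes 17 and 1 were packed toward 1 side, and that on chromosome 3 had groups at both sides joined by loops of 608 and 554 kb.

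Chromosome 11 held 3 of the next clusters. Those at chr11:66972001-67434000 and chr11:67146001-67252000 had 10 loops and 22 contacts each, and the latter lay within the range of the former without a shared or touching anchor. The former held a loop of 342 kb that joined its sides with 2 contacts of a coverage of 158, and a loop of 10 kb with 4 contacts of 65. The cluster at chr11:66204001-66420000 had 9 loops, each with 2 contacts, spanning 10 to 124 kb. On chromosome 7, the cluster at chr7:98638001-98872000 had 8 loops with 21 contacts. Its loop of 5 contacts spanned 10 kb, and a bin at its start, chr7:98638001-98640000, was joined to bins 100 and 120 kb away by 2 and 3 contacts.

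In windows of 1 Mb, 456 of the 1734 windows with a loop held at least 1 loop of 2 or more contacts, and 278 held exactly 1. The 8 windows with 10 or more held 129. The window from 79 Mb on chromosome 17 had 24 among 173 loops (13.9%), and that from 209 Mb on chromosome 1 had 14 among 112 (12.5%). The windows from 67 and 66 Mb on chromosome 11 had 23 among 349 (6.59%) and 21 among 379 (5.54%). The window from 189 Mb on chromosome 3 had 13 among 269 (4.83%).

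By chromosome, the share of loops with 2 or more contacts was highest on chromosome 17, at 4.60% (103 of 2238, 3.81 to 5.55%), followed by chromosome 11, at 4.37% (108 of 2471, 3.63 to 5.25%). It was lowest on chromosome 21, at 0.858% (2 of 233, 0.236 to 3.08%), and chromosome 4, at 0.965% (3 of 311, 0.329 to 2.80%). The interval of chromosome 17, picked as the highest, did not overlap those of chromosomes 4, 8, 13 and 21. Neighbours in this order overlapped. The shares were not matched for span or coverage. Since the rule uses the contacts, they are a description and test nothing. The segments of high coverage had a median first-bin coverage of 28 on chromosome 3 and 33 on chromosome 11, beside 14 elsewhere. They are named for that coverage, so the difference describes them and is not a result. Their loops had median spans of 106 and 126 kb, beside 90 kb elsewhere. The shares in the 2 segments were 4.11% (3.33 to 5.05%) and 4.52% (3.52 to 5.80%), beside 3.36% (3.15 to 3.60%) elsewhere. The part of coverage and of span in these shares was not tested.

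**Figure D5:**
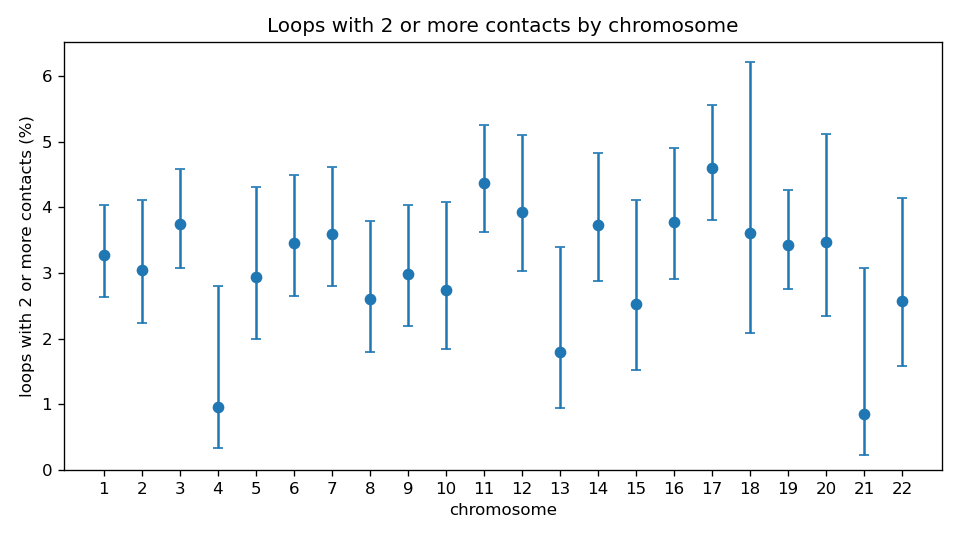
Share of loops with 2 or more contacts (vertical axis, percent) on each autosome (horizontal axis). Points are shares over the loops of a chromosome and bars are 95% Wilson intervals. Chromosome 17 was highest at 4.60% and chromosome 21 lowest at 0.858%, with wide intervals where a chromosome had few loops.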

How the data were processed

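H3K27ac HiChIP was done on 2 libraries of KYSE180. The authors processed reads with HiC-Pro (build hg19 per the labels) and ran FitHiChIP (Peak-To-All) for loops the methods term active and p63-associated. They removed loops lacking H3K27ac at an end and deposited 1 list with 2 columns of whole numbers, taken here as raw counts, not normalized. The columns are unnamed. They were read as contacts and first-bin coverage from their order and values. Library depth is not given in the sources used here. The members and lists were chosen with earlier results of these data known.

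Shares have Wilson intervals and counts exact Poisson intervals. The neighbour step was tested on a simulated list with planted neighbours. The cluster step was only checked to give no more clusters than loops, so it was not tested against a known answer. The planned results on promoters, genes, CTCF motifs and AP-1 motifs, and with them the rule for named genes and the marker lists, were not run, because the reference used here is on hg38 and positions were not converted. Shares and counts were computed in pandas 2.3.3 and numpy 2.4.6 under Python 3.11.15, intervals in statsmodels 0.14.6 and scipy 1.17.1, clusters in networkx 3.6.1 and figures in matplotlib 3.10.9.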

Additional observations from a re-analysis of the deposited data

How the results depend on the processing

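Of 18 recomputed values of 4 results, 9 stayed within the counting interval of the value given or, for clusters, within 1.5 times of it. With loops of at least 20 kb alone, the share of loops with 2 or more contacts was 2.56%, the median span 52 kb and the share with a neighbour 40.7%, by construction for the span. With the pile-ups kept, the share with 2 or more contacts was 3.77%. The share with a neighbour was 55.6% at 3 or more contacts, 32.1% with both ends within 2 kb, and, in alternatives chosen after seeing the data, 55.5% at a coverage of 30 or more and 40.3% with neighbours of 1 contact. At 3 or more contacts there were 65 clusters, from fewer loops. Leaving out the segments of high coverage moved none of the 4 results past these limits. Alternatives for promoters, genes and motifs were not run. No paired analysis was possible because the contacts of replicates 1 and 2 are pooled. The intervals of counts of 1 and 2 overlap, so single loops on either side of the limit cannot be told apart.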
